A study of Mus musculus with 2 samples.

Results

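The miRNAs described here are 7 mature miRNAs that are best known from immune cells, namely mmu-miR-142a-3p, mmu-miR-142a-5p, mmu-miR-146a-5p, mmu-miR-146b-5p, mmu-miR-155-5p, mmu-miR-150-5p and mmu-miR-223-3p. They were taken by these names (mmu- for mouse) from the 1881 mouse miRNAs on the array, and the rule used no signal. KPC-exosomes came from the supernatant of 1 pancreatic cancer line, which was developed from tumour tissue of KPC mice, whose alleles include Trp53 LSL-R172H/+ and Pdx1-Cre, and was kept in RPMI-1640 with 20% FBS. MPDC-exosomes came from 1 purchased line of murine pancreatic ductal epithelial cells, kept in DMEM with 10% FBS, for which the labels give no genotype. Both were collected in medium with exosome-free FBS, isolated by differential ultracentrifugation and measured on 1 array each, so no difference below has a replicate check, a p-value or an SD across samples. Each group stands for 1 cell line and 1 exosome preparation, in which fewer exosomes with a miRNA and fewer copies per exosome cannot be told apart.

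A miRNA guides the silencing complex to messenger RNAs that pair with its seed, the bases that follow the first base at its 5′ end. The miR-142 hairpin is used across blood cell lineages and gives rise to a functional miRNA from each arm. miR-146a is induced through NF-κB, and miR-146a and miR-146b dampen Toll-like receptor signalling by targeting Traf6 and Irak1. miR-155 is processed from the non-coding transcript Mir155hg (Bic) in activated lymphocytes and macrophages, and targets Socs1 and Inpp5d. miR-150 is abundant in mature lymphocytes and targets Myb, and miR-223 is abundant in neutrophils and other myeloid cells and targets Mef2c. Several of them are also found outside immune cells, and miR-146a and miR-155 in particular can be induced in epithelial and tumour cells.

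The mature sequences of 6 of the 7 miRNAs are given below from RefSeq (GRCm38.p6), because miR-146a-5p and miR-146b-5p share their seed and differ at few bases, which bears on how far their probes tell them apart. They are written 5′ to 3′, with the seed (bases 2 to 8) in capitals.
miR-142a-3p: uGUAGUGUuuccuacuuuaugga
miR-142a-5p: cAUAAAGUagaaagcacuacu
miR-146a-5p: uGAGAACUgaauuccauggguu
miR-146b-5p: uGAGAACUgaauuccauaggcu
miR-155-5p: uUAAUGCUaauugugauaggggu
miR-223-3p: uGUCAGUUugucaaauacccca

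miR-146a-5p and miR-146b-5p shared the seed GAGAACU, and no other of the 1679 mature names in the RefSeq table carried it. The other 4 seeds were each found in 1 name alone. The pair was identical at 20 of 22 bases, and differed by G18A and U21C, counted from the 5′ end with the base of miR-146a-5p first. The GC content of the 6 sequences lay between 33.3% and 40.9%, with a median of 37.8%, beside a median of 52.2% over the 1679 names.

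On GRCm38.p6 the genes of these miRNAs lie at separate places. Mir142 spans chr11:87756864-87756927, where miR-142a-5p takes chr11:87756867-87756887 and miR-142a-3p takes chr11:87756903-87756925 on the plus strand, and where Mir142b is annotated on the minus strand. Mir146, the gene of miR-146a, spans chr11:43374397-43374461 and overlaps no other annotated gene, with miR-146a-5p at chr11:43374435-43374456 on the minus strand. Mir146b spans chr19:46342762-46342870 within the lncRNA gene Gm36493, with miR-146b-5p at chr19:46342790-46342811 on the plus strand. Mir155 spans chr16:84714140-84714204 within the lncRNA gene Mir155hg, with miR-155-5p at chr16:84714143-84714165 on the plus strand. Mir150 spans chr7:45121757-45121821 and overlaps no other annotated gene. Mir223 spans chrX:96242817-96242926 within the lncRNA gene F630028O10Rik, with miR-223-3p at chrX:96242884-96242905 on the plus strand.

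Signals are intensities in arbitrary units, and each is given with the error that the scanner software assigned to it, which covers the measurement on the array only. Probes with a signal above 3 of their errors counted as detected, and these were added up for each miRNA. Of the 1881 miRNAs, 772 were detected in KPC-exosomes, 1031 in MPDC-exosomes and 726 in both. The array of KPC-exosomes was the dimmer one, and the 726 shared miRNAs had a median log2 difference (KPC-exosomes minus MPDC-exosomes) of -1.37 before normalization. The differences of the 4 spike-in controls ranged from -0.31 to 0.38 and averaged 0.03. After quantile normalization, which gives both arrays the same distribution of signals, the median of the shared miRNAs was 0.53. For this reason each difference is given both before and after normalization.

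The 7 miRNAs split by direction. After normalization miR-142a-3p, miR-142a-5p, miR-146a-5p and miR-155-5p were at least 2-fold higher in KPC-exosomes, 4 of 7 where 31.5% of the 1077 miRNAs detected on at least 1 array were higher. miR-146b-5p and miR-150-5p were at least 2-fold lower, 2 of 7 where 24.6% were lower, and miR-223-3p was lower by less than 2-fold. Before normalization the same 4 were higher, beside 10.1% of all, and miR-146b-5p, miR-150-5p and miR-223-3p were all at least 2-fold lower, beside 64.8% of all. The median difference of the 7 was 2.996 after normalization and 1.35 before, and that of all miRNAs with a value was 0.30 (n = 905) and -1.60 (n = 1072). In these medians and counts a miRNA that 1 array did not detect enters with its bound, that is, its difference from the limit of that array. Where the detected signal did not pass that limit on the scale used, the miRNA had no value. It was then left out of the median and counted as neither higher nor lower. The medians before and after normalization thus cover unlike sets of miRNAs. The limit was the lowest signal detected on that array, 1.41 in KPC-exosomes and 1.51 in MPDC-exosomes, or the summed signal of the miRNA's own probes where this was higher.

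**Figure D1:**
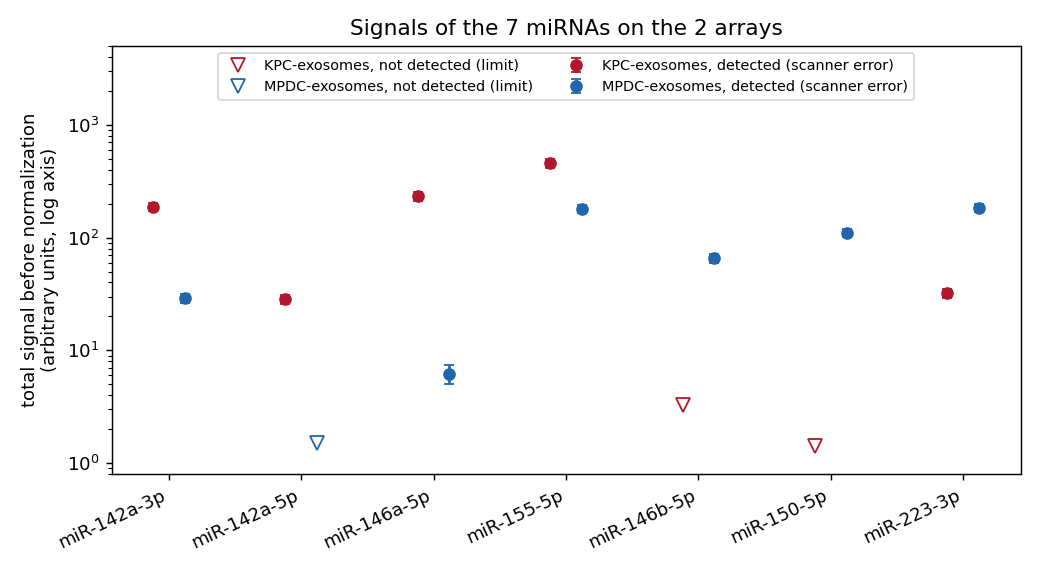
Total signal of each of the 7 miRNAs before normalization (arbitrary units, log axis) on the array of KPC-exosomes (red) and of MPDC-exosomes (blue), with bars for the scanner error and open triangles for the limit where the miRNA was not detected. The miR-142a arms, miR-146a-5p and miR-155-5p lie higher in KPC-exosomes and the other 3 miRNAs lie higher in MPDC-exosomes; only the 2 points of 1 miRNA are comparable with each other, since probes differ between miRNAs.

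miR-142a-3p, one of the most used markers of blood cell lineages among miRNAs, gave a signal of 188 ± 14.01 in KPC-exosomes and 29.1 ± 2.59 in MPDC-exosomes. Both its probes were detected on both arrays, with the higher value in KPC-exosomes each time. The difference was 2.69 (log2) before normalization, or 6.44-fold, with a scanner error of 0.17. After normalization it was 4.42, or 21.3-fold, and took place 52 from the highest among the 726 shared miRNAs.

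miR-142a-5p, from the other arm of the same hairpin, was detected in KPC-exosomes alone. Its signal there was 28.4 ± 2.41, while its probes summed to 0.439 in MPDC-exosomes and neither exceeded 3 errors. It was therefore at least 18.8-fold higher in KPC-exosomes before normalization and at least 138-fold higher after it. The second bound holds for this normalization only, where it was 7.11 (log2). It was 5.86 with the arrays scaled to the median of the shared miRNAs, and 5.03 with quantiles over the shared miRNAs alone. With the limit set at 3 errors of its own probes, a signal of 5.98, the bounds were at least 4.74-fold before normalization (2.25, log2) and at least 69.5-fold after it. The first is smaller than the 2.69 of miR-142a-3p, so a larger difference for the 5p arm than for the 3p arm was not shown on both scales. miR-142b, which lies opposite miR-142a-3p on the minus strand of the same locus, was detected on neither array.

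miR-146a-5p, the NF-κB-induced brake on Toll-like receptor signalling, differed most among the members measured on both arrays. It read 232 ± 20.0 in KPC-exosomes against 6.21 ± 1.17 in MPDC-exosomes. The difference was 5.22 (log2) before normalization, or 37.3-fold, with a scanner error of 0.30, and was the 7th highest of the 726 shared miRNAs. After normalization it was 9.08, or 541-fold, and the 6th highest. On the normalized log2 scale KPC-exosomes had 8.73 and MPDC-exosomes had -0.34, not far above the -1.36 of the dimmest miRNA detected there. The fold thus depended on the scale far more than the rank did. In MPDC-exosomes only 1 of its 2 probes was detected, and the other gave 0.852 ± 1.00.

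miR-146b-5p, which shares the seed with miR-146a-5p but comes from a gene on another chromosome, ran the other way. It was not detected in KPC-exosomes, where its probes gave 0.486 ± 0.930 and 2.77 ± 0.970, and had a signal of 65.5 ± 5.92 in MPDC-exosomes. The brighter of these probes reached 2.85 errors in KPC-exosomes, just under the 3 required. The miRNA was at least 20.1-fold lower in KPC-exosomes before normalization and at least 4.74-fold lower after it. With the limit at 3 errors of its own probes, the bounds were at least 11.5-fold and at least 3.14-fold lower.

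The opposite values of this pair bear on how well the array told them apart, since the longest run of bases shared by probes of miR-146a-5p and miR-146b-5p was 14, against at most 5 between any other members. In KPC-exosomes both probes of miR-146a-5p were detected, at 196 ± 19.7 and 35.5 ± 3.67, and neither probe of miR-146b-5p was. In MPDC-exosomes both probes of miR-146b-5p were detected, at 8.69 ± 1.33 and 56.8 ± 5.77, together with the brighter probe of miR-146a-5p at 6.21 ± 1.17. The 2 differences lay at least 9.55 apart (log2) before normalization and 11.32 after it, or at least 8.74 and 10.73 with the limit at 3 errors of the miR-146b-5p probes. The miRNAs of this seed were thus higher in opposite exosomes, and the part of miR-146b-5p in the 6.21 read for miR-146a-5p in MPDC-exosomes was not tested.

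miR-155-5p, the product of Mir155hg, was detected by both probes on both arrays and was higher in KPC-exosomes. Its signal reached 456 ± 39.1 in KPC-exosomes and 179 ± 14.4 in MPDC-exosomes. The difference was 1.35 (log2) before normalization, or 2.55-fold, with a scanner error of 0.17, and 2.996 after it, or 7.98-fold. It took place 58 from the highest of the 726 shared miRNAs before normalization and place 121 after it. The probes differed in size, with 0.79 for one and 1.49 for the other, and both were higher in KPC-exosomes.

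miR-150-5p, a miRNA of mature lymphocytes, was not detected in KPC-exosomes. Both its probes lay at or under background there, at -0.445 ± 0.928 and -0.451 ± 0.928, while in MPDC-exosomes they gave 25.7 ± 2.77 and 83.5 ± 8.42, a summed signal of 109 ± 8.86. It was at least 77.7-fold lower in KPC-exosomes before normalization and at least 12.6-fold lower after it. With the limit at 3 errors of its own probes, the bounds were at least 19.6-fold and at least 5.25-fold lower.

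The other arm, miR-150-3p, gave 22.6 ± 1.74 in KPC-exosomes and 25.7 ± 1.66 in MPDC-exosomes. Its difference was -0.19 (log2) before normalization and 1.63 after it, so its direction depended on the normalization and it was detected on the array where miR-150-5p was not. Its 4 probes also disagreed before normalization, with 1 higher at 1.07 and 3 lower at -0.57, -0.41 and -1.70 in KPC-exosomes. These probes had 10 to 13 bases, and the spots of all but the longest overlapped between the arrays. The coefficient of variation of the spots reached 55.6% in KPC-exosomes and 79.6% in MPDC-exosomes.

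miR-223-3p, the miRNA of neutrophils and other myeloid cells, had a signal of 32.0 ± 2.77 in KPC-exosomes and 184 ± 15.2 in MPDC-exosomes. Both probes were higher in MPDC-exosomes, by -1.93 and -2.72 as log2 differences of KPC-exosomes minus MPDC-exosomes. Summed, miR-223-3p was 5.74-fold lower in KPC-exosomes before normalization (-2.52, log2, with a scanner error of 0.17) and 1.58-fold lower after it (-0.66). Relative to the median of all miRNAs with a value, its difference was -0.92 before normalization and -0.96 after it.

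Of the other mature miRNAs annotated at these loci, 5 of 6 were detected on neither array. They were miR-142b, from the opposite strand, and the arms miR-146a-3p, miR-146b-3p, miR-155-3p and miR-223-5p. Only miR-150-3p was detected, as described.

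**Figure D2:**
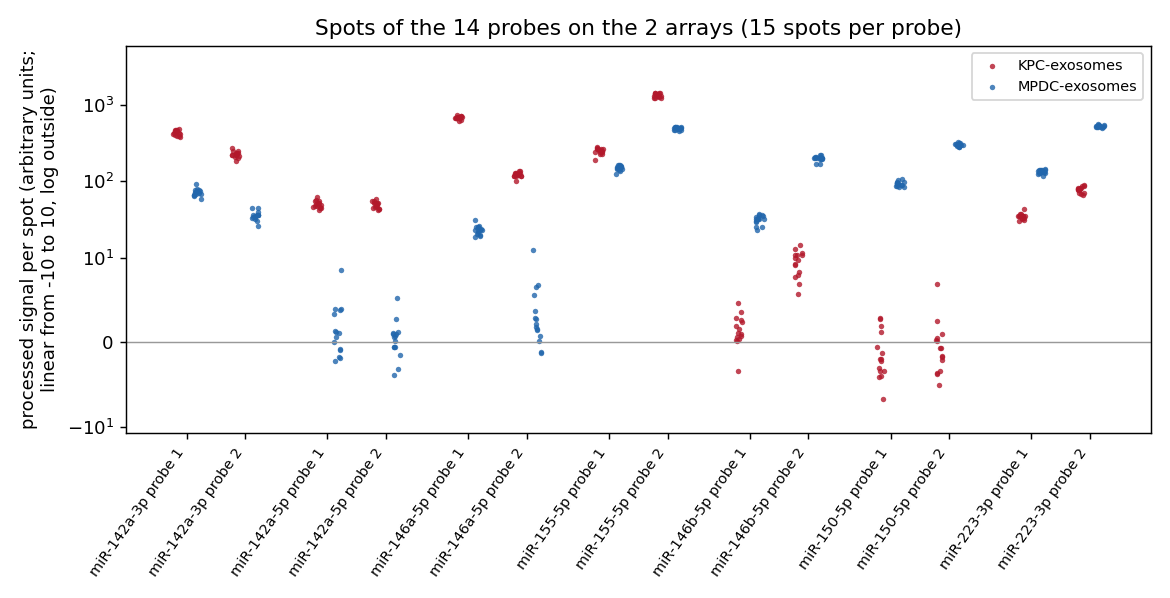
Processed signal of every spot (15 per probe, arbitrary units, linear from -10 to 10 and logarithmic outside) for the 14 probes of the 7 miRNAs on the array of KPC-exosomes (red) and of MPDC-exosomes (blue), before normalization. For each probe the spots of 1 array lie wholly above those of the other, and both probes of a miRNA lie the same way.

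The spots showed how these sums came about. Each of the 14 probes, of 15 to 23 bases, was printed in 15 spots, and none of these spots was saturated. For all 14 probes the spot signals of the arrays did not overlap, as for 75.3% of the 2535 probes of miRNAs detected on at least 1 array, so this separation is common on these arrays and says nothing particular about the 7 miRNAs. The spots of the brighter miR-146a-5p probe ran from 618 to 736 with a median of 690 in KPC-exosomes, and from 18.8 to 31.3 with a median of 23.2 in MPDC-exosomes. Those of the brighter miR-146b-5p probe ran from 5.75 to 14.5 with a median of 9.67 in KPC-exosomes, and from 169 to 224 with a median of 203 in MPDC-exosomes. The KPC-exosome spots of this miR-146b-5p probe all lay above 0, although none was well above background by the scanner's own call. The spots of the brighter miR-155-5p probe ran from 1232 to 1457 in KPC-exosomes and from 463 to 523 in MPDC-exosomes, and those of the brighter miR-223-3p probe from 66.4 to 88.7 and from 497 to 560. Where a probe was detected, its spots varied with a coefficient of variation of 3.12% to 13.9%. Spots are repeats on 1 array and not replicates of the exosomes.

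The differences of the members were also set against each other, since a common factor on an array moves all of them alike, although quantile normalization does not. Among the 4 members measured on both arrays the order before normalization was miR-146a-5p, miR-142a-3p, miR-155-5p and miR-223-3p. miR-146a-5p exceeded miR-142a-3p by 2.53 (log2, scanner error 0.34), miR-142a-3p exceeded miR-155-5p by 1.34 (0.24), and miR-155-5p exceeded miR-223-3p by 3.87 (0.24). Each gap was several times its scanner error. After normalization the order was the same, with gaps of 4.66, 1.42 and 3.65, so the first depended on the scale. Of the members with a bound, miR-142a-5p lay at least 6.76 above miR-223-3p before normalization, or 4.77 with the limit at 3 errors of its own probes. miR-146b-5p lay at least 1.81 below miR-223-3p, or 1.00 with that limit. miR-150-5p lay at least 3.76 below it, or 1.77 with that limit.

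**Figure D3:**
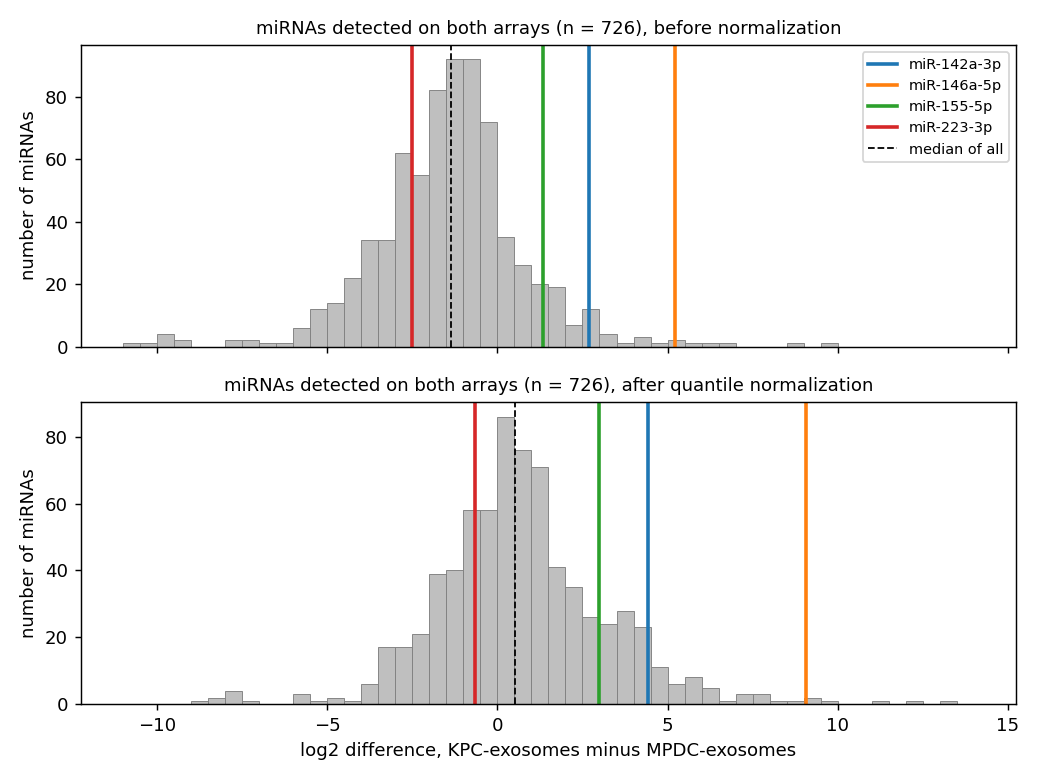
Number of miRNAs by log2 difference (KPC-exosomes minus MPDC-exosomes) for the 726 miRNAs detected on both arrays, before (top) and after (bottom) quantile normalization, with coloured lines at the 4 members measured on both arrays and a dashed line at the median. miR-146a-5p, miR-142a-3p and miR-155-5p lie above the median in both panels and miR-223-3p lies below it, while the median itself moves from -1.37 to 0.53.

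Set against the median of all miRNAs with a value, which covers 1072 before normalization and 905 after it, the members kept their sides. miR-146a-5p lay 6.82 above it before normalization and 8.78 after, miR-142a-3p lay 4.28 and 4.12 above it, and miR-155-5p lay 2.95 and 2.70 above it. The bounds lay 5.83 and 6.81 above the median for miR-142a-5p. For miR-146b-5p the bound relative to the median was -2.73 before and -2.54 after normalization, and for miR-150-5p it was -4.68 and -3.95. The values of miR-142a-3p, miR-155-5p, miR-146b-5p and miR-223-3p relative to the median were thus close on both scales, and those of miR-146a-5p and miR-142a-5p, each at the low end in MPDC-exosomes, were not.

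For each member measured on both arrays, the miRNAs with the most similar pair of normalized log2 signals were sought among the other 725 shared miRNAs by Euclidean distance over the 2 arrays. The nearest to miR-142a-3p were miR-1188-5p at a distance of 0.25 and miR-100-5p at 1.04. The nearest to miR-146a-5p were miR-31-3p at 0.54 and miR-6985-5p at 0.77, and both also had low signals in MPDC-exosomes, at 12.8 and 12.1. The nearest to miR-155-5p were miR-7016-5p at 0.15 and miR-7007-5p at 0.17, and those to miR-223-3p were miR-8113 at 0.16 and miR-7085-5p at 0.22. No member was among the 2 nearest of another, and with 2 arrays this likeness describes signals only.

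Among 14 other miRNAs known from immune and blood cells, 8 were detected on both arrays and 6 on neither, the latter being both arms of miR-511, miR-147 and miR-144. These 6 could not be called. After normalization 2 of the 8 detected miRNAs were at least 2-fold higher in KPC-exosomes and 1 was lower, beside 31.5% and 24.6% of all detected miRNAs. Before it 1 was higher and 5 were lower, beside 10.1% and 64.8%. The higher ones were miR-21a-5p, which many activated and tumour cells express, with 51685 against 6934 (4.45 after normalization and 2.90 before), and miR-132-3p with 87.5 against 61.4 (2.27 and 0.51). The lower one was miR-342-5p with 2.98 against 62.3 (-2.25 and -4.39), whereas miR-342-3p from the same hairpin gave 1033 against 3305 (-0.06 and -1.68). miR-181a-5p, known from lymphocyte development, gave 9.89 against 19.7 (0.90 and -0.99), and miR-126a-3p, known from endothelium, gave 51.3 against 296 (-0.76 and -2.53). The median of the 8 was -0.03 after normalization and -1.74 before, beside 0.30 and -1.60 for all miRNAs.

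Markers of red cells and serum are given beside the members. Of these, miR-451a, miR-144-3p and miR-486a-5p also belong to the list of immune and blood-cell miRNAs above, so the lists overlap. miR-451a, which is specific to red cells, gave 16.4 ± 1.79 in KPC-exosomes and 104 ± 7.83 in MPDC-exosomes, and the erythroid miR-486a-5p gave 14.2 ± 1.66 and 49.3 ± 3.78. The liver miRNA miR-122-5p was not detected in KPC-exosomes and gave 6.32 ± 1.18 in MPDC-exosomes, and miR-144-3p was detected on neither array. Summed, these 4 gave a signal of 30.6 in KPC-exosomes and 159 in MPDC-exosomes. Before normalization the 3 detected miRNAs were all at least 2-fold lower in KPC-exosomes, beside 64.8% of all detected miRNAs. After it 0 were, beside 24.6%, and miR-122-5p had no value there. After normalization miR-451a differed by -0.82 (log2) and miR-486a-5p by -0.00. Of the members, miR-146b-5p, miR-150-5p and miR-223-3p were higher in MPDC-exosomes, and miR-146a-5p, miR-155-5p and both arms of miR-142a were higher in KPC-exosomes. The part of serum or blood RNA in these signals was not tested.

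The markers of the labelled cell types also differed. All 6 epithelial miRNAs were detected in MPDC-exosomes and 5 in KPC-exosomes, where miR-205-5p was not, and summed to 98.8 in KPC-exosomes and 1763 in MPDC-exosomes. After normalization 4 of the 6 were at least 2-fold lower in KPC-exosomes, beside 24.6% of all miRNAs, and 0 were higher, with miR-200c-3p at 4.58 against 991. The other arms of these hairpins, looked at after their values were seen, did not all follow, since miR-200a-5p gave 99.8 in KPC-exosomes and 14.8 in MPDC-exosomes. Of 5 pancreas miRNAs, KPC-exosomes alone had a detected signal of miR-217-5p, at 60.9, and MPDC-exosomes alone of miR-148a-3p, at 1190, while miR-216a-5p, miR-216b-5p and miR-375-3p were detected on neither array. The clusters from miR-290 to miR-295 and of miR-302 and miR-367, known from pluripotent cells, were also looked at after their values were seen. Several of their miRNAs had high signals in MPDC-exosomes. Of the 28 miRNAs of these clusters, 23 were detected in MPDC-exosomes and 15 in KPC-exosomes, beside 1031 and 772 of all 1881. The 3 detected on neither array could not be called. After normalization 17 of the rest were at least 2-fold lower in KPC-exosomes, beside 24.6% of all detected miRNAs, and 2 were higher, beside 31.5%. The higher ones were miR-290b-5p, at 2760 in KPC-exosomes, and miR-292b-5p, at 99.1, neither of them detected in MPDC-exosomes. The summed signal of the 28 reached 3747 in KPC-exosomes, most of it from miR-290b-5p, against 492701 in MPDC-exosomes. Since these clusters were picked from these same values, the counts and sums describe signals and are no test of cell identity. The part of cell identity in the differences of the 7 miRNAs was not tested.

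**Figure D4:**
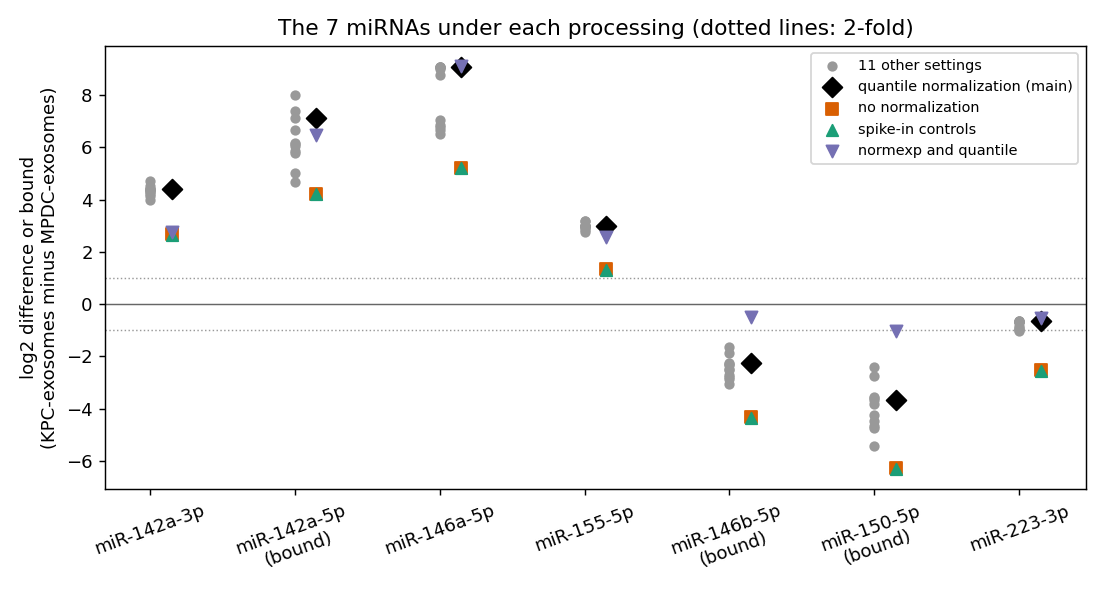
Log2 difference (KPC-exosomes minus MPDC-exosomes), or its bound for the 3 miRNAs that 1 array did not detect, for each of the 7 miRNAs under 15 ways of processing, with dotted lines at a 2-fold difference. All points of a miRNA lie on the same side of 0, which for a bound is fixed by the array that detected the miRNA. The points of miR-223-3p and miR-146b-5p lie on both sides of a dotted line.

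The direction of members measured on both arrays was the same under all 15 ways of processing that give a difference, the main one included. For a bound the sign is set by which array detected the miRNA, so it could not change. The sizes differed between these ways. miR-146a-5p ranged from 5.20 to 9.11, miR-142a-5p from 4.21 to 8.004 as a bound, miR-142a-3p from 2.66 to 4.70 and miR-155-5p from 1.33 to 3.20. Their 4 ranges stayed above 2-fold throughout. miR-150-5p ranged from -6.30 to -1.02 and miR-146b-5p from -4.36 to -0.48, both as bounds, with the values nearest to 0 under another background correction (normexp). miR-223-3p ranged from -2.55 to -0.52 and crossed the 2-fold line.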

How the data were processed

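The 7 miRNAs and the marker lists were chosen with earlier results of these data known. RNA of 1 KPC-exosome and 1 MPDC-exosome preparation was labelled with Cy3 and hybridised to 1-colour Agilent mouse miRNA arrays. The authors deposited the scanner output, which holds background-subtracted intensities (linear) with their errors, and log2 values per miRNA normalised in GeneSpring. The version of Feature Extraction is 10.7.1.1 in the file headers and 9.1 in the submitters' processing notes.

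Total signals of probes above 3 errors were summed per miRNA, undetected miRNAs were set to 0.1, and log2 values of both arrays were quantile normalised with 21 control features. This matched the deposited log2 values within 1.11e-05. A miRNA was called when detected on at least 1 array and at least 2-fold different, with limits in place of floors in the difference. The normalization itself still held the floors. The lowest detected signals, 1.41 in KPC-exosomes and 1.51 in MPDC-exosomes, thus became 2.19 and -1.36 (log2) after it. With 1 array per group no test was made, and the number of arrays limits the precision. Calls were checked on simulated arrays that shared their detected miRNAs and their brightness. That setting could not show miscalls from unequal detection or brightness, which the arrays here had. The alternatives were other scalings (median, 75th percentile, spike-in controls, none), normexp with an offset of 50, the processed signal, other sums of probes, detection at 2 or 5 errors, a threshold of 4-fold, and differences of more than 2 scanner errors. The miRNAs of the text are the 7 members, the other mature miRNAs of their loci, listed markers and the 2 nearest neighbours of each member. Positions and sequences are from RefSeq (GRCm38.p6), whose table held 1608 of the array's 1881 names. Python 3.11.15, numpy 2.4.6, pandas 2.3.3, matplotlib 3.10.9, R 4.3.3 and limma 3.58.1 were used. A further allele of the KPC mice and a neighbouring gene are not reported here.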

Additional observations from a re-analysis of the deposited data

How the results depend on the processing

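The count of members at least 2-fold higher in KPC-exosomes was 4 under all 16 alternatives. The count lower was 2 or 3 under 15 of them and 1 under normexp background correction with quantile normalization, where the bound of miR-146b-5p was -0.48 (log2), and the cause was not tested. The count was 3 with no normalization, with spike-in controls and with the processed signal, which each put miR-223-3p past 2-fold. No member measured on both arrays changed direction, and the sign of a bound is set by which array detected the miRNA. With the limit at 3 errors of a miRNA's own probes, chosen after seeing the data, the normalized bounds were 6.12 for miR-142a-5p, -1.65 for miR-146b-5p and -2.39 for miR-150-5p. No paired analysis was possible because each group had 1 array. Signal over background limited the 3 undetected values, which have bounds only.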
